A study of Mus musculus with 10 samples.

Results

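The respiratory chain of the mitochondrial inner membrane was examined here through the nuclear genes that encode its subunits. The genes were taken by name from the platform annotation of the array: symbols that begin with Nduf (complex I) or Uqcr (complex III), the succinate dehydrogenase genes Sdha, Sdhb, Sdhc and Sdhd (complex II), Cycs (cytochrome c), and symbols that begin with Cox followed by 4, 5, 6, 7 or 8 (complex IV). They were 74 of the 18193 genes that the annotation names singly, and 72 of them lay above the floor on low values and were tested among 13666 genes. The 72 comprised 35 genes of complex I, 8 assembly factors of complex I (the Ndufaf genes, which help to build the complex and are not part of it), 4 of complex II, 8 of complex III, Cycs, and 16 of complex IV.

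Electrons from NADH enter the chain at complex I and those from succinate at complex II. They pass through complex III and the small carrier protein cytochrome c to complex IV, which hands them to oxygen, while complexes I, III and IV pump protons that drive ATP synthase. A few subunits are encoded in mitochondrial DNA and the rest in the nucleus, and several subunits of complex IV exist as alternative isoforms that are restricted to certain tissues. In the small intestine the chain supplies much of the ATP that absorptive enterocytes spend on nutrient and ion transport.

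RNA of the terminal ileum was measured in 10 male mice of the strain C57BL/6JJmsSlc, given as 7 weeks of age, with 1 Affymetrix array per mouse. The 5 control mice were unstressed. The 5 stressed mice had met an aggressive male of the Slc:ICR line each day for 10 days, in physical contacts of 5 min on day 1 that were shortened by 0.5 min a day to 0.5 min on day 10. Single housing, the AIN-93G diet and a fast of 3 h ahead of tissue collection were common to both groups, and each array received label from 100 ng of RNA. The tissue is a whole piece of gut, so that fewer cells of a type and less RNA per cell cannot be told apart. Values are log2 probe set values from RMA, a difference is stressed minus control on that scale, and error is the standard deviation (SD) over n mice or the standard error (SE) of limma.

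The array labelled control 1 stood apart from the others. Across the 13666 genes it correlated with the other 9 arrays at 0.918 to 0.947, and those 9 correlated with one another at 0.975 to 0.995. Fabp6, the bile acid binding protein that marks ileal enterocytes, was at 7.88 in control 1 and at 13.88 to 14.10 in the other 9 arrays. Car1, a carbonic anhydrase of the large intestine, was at 14.17 in control 1 and 13.32 in stressed mouse 4, and at 4.95 to 7.41 in the other 8 arrays. The summed markers of absorptive enterocytes (13 of 13 tested) had a mean of 8.33 in control 1 against 11.37 to 12.00 elsewhere, and those of smooth muscle (10 of 10) a mean of 11.05 against 9.78 to 10.68. Of 12 large intestine markers 6 were tested, with a mean of 10.15 in control 1, 10.09 in stressed mouse 4 and 7.98 to 8.78 elsewhere, and 6 Hox genes of the hindgut lay below the floor. Of the 6 tested, Mptx1 (9.12 against 10.62 to 11.84) and Mep1a (10.92 against 11.23 to 11.78) were lowest in control 1, and Aqp8 was at 7.50 in control 1 and 7.26 in stressed mouse 4 against 4.15 to 4.49 elsewhere. Mptx1 and Mep1a were thus high in the 9 arrays with high Fabp6, so here they were not particular to large intestine, although the list mean counts them. The ileal marker Fabp6 was thus high in 9 arrays and not in control 1, and each result is given with all 10 arrays and without control 1.

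None of the 72 genes of the chain differed between stressed and control mice at a limma adjusted p under 0.05, in either set of arrays. With 10 arrays 0% of the 13666 genes passed that threshold, and without control 1 0.798% passed. At an unadjusted p under 0.05 in limma, 1 member was higher and 1 lower with 10 arrays, where 3.86% of all genes were higher and 3.96% lower (7.82% in all). Without control 1, 1 member was higher and 2 were lower, where 11.4% of all genes were higher and 6.56% lower (18% in all). At a limma adjusted p under 0.1, 0 members passed with 10 arrays (0.0146% of all genes) and 2, Cox7a1 and Cox6b2, without control 1 (3.41%). The members at an unadjusted p under 0.05 were Cox7a1, Cox4i2 and, without control 1, Cox6b2, each a tissue-restricted isoform of complex IV. The differences of the 65 members other than the restricted isoforms ran from -0.19 to 0.16 with 10 arrays and from -0.16 to 0.29 without control 1.

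The direction of the members as a group differed with control 1 and with the scaling of the arrays. With 10 arrays 59 of the 72 were lower in stressed mice and 13 higher, with a median difference of -0.06, while 50.9% of all genes were higher with a median difference of 0.00. Without control 1, 38 were lower and 34 higher, with a median difference of 0.00, while 56.2% of all genes were higher with a median of 0.03. When each array was centred on its median over the genes tested, the split without control 1 became 60 lower and 12 higher, with a median of -0.07 against -0.04 for all genes. That centring gave 63 lower and 9 higher with 10 arrays, and weights for the quality of each array gave 42 lower and 30 higher.

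**Figure D1:**
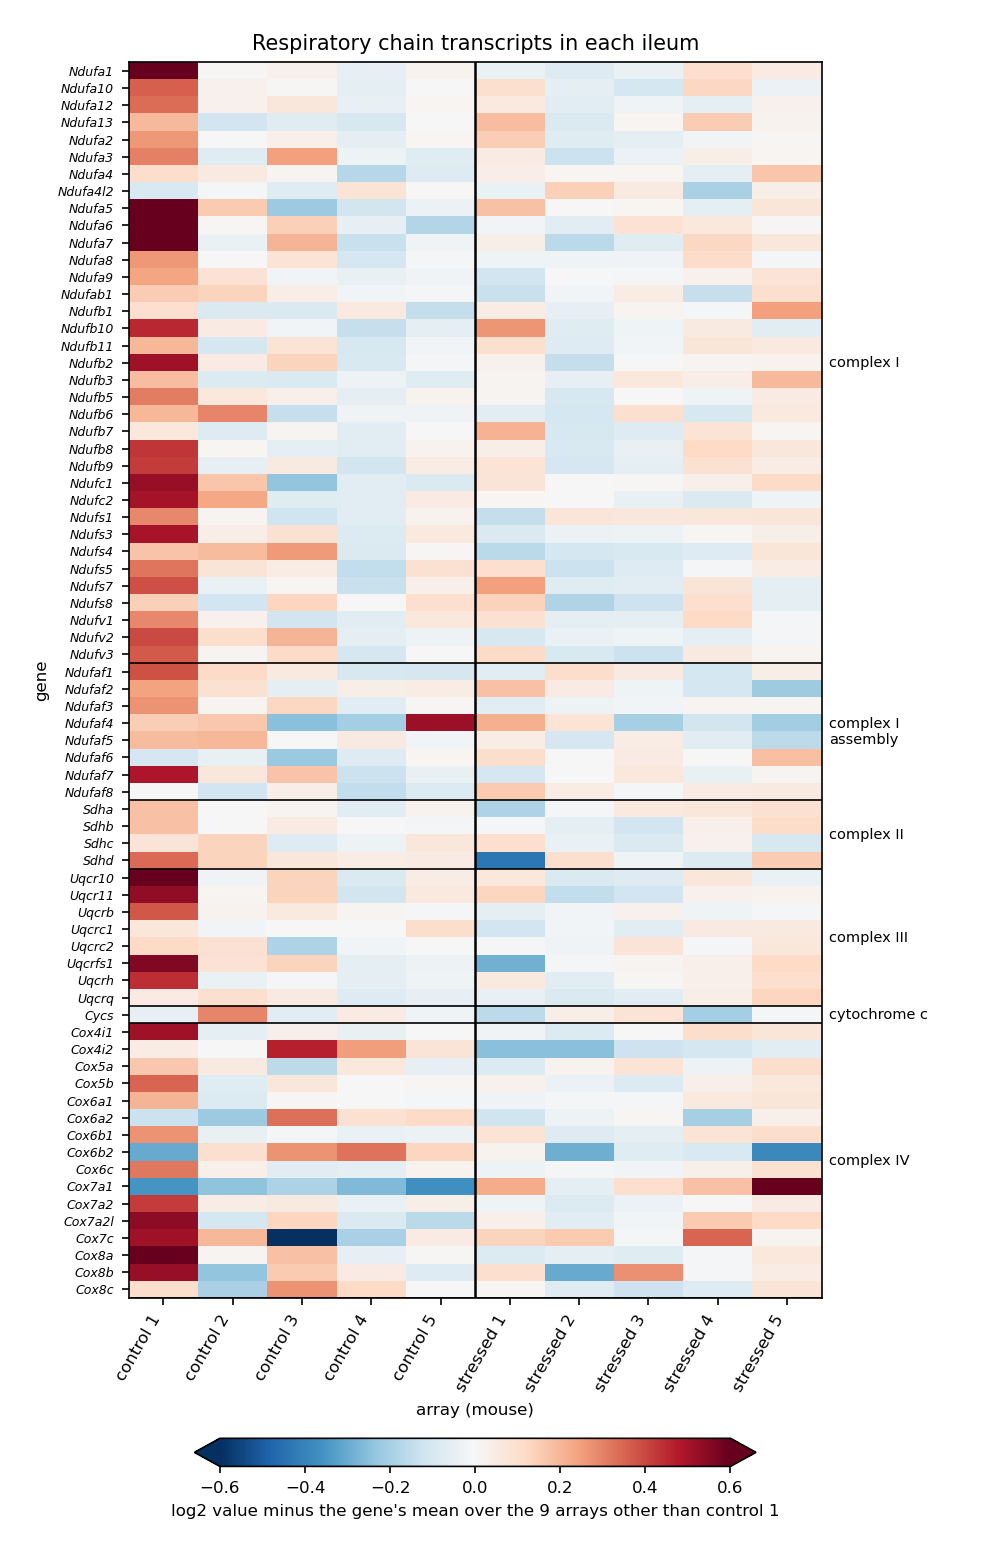
Each row is 1 of the 72 tested genes of the respiratory chain, each column 1 array, and the colour gives the log2 value minus the gene's mean over the 9 arrays other than control 1 (red higher, blue lower; colours saturate at 0.6 in either direction). Control 1 was the highest array for 52 of the 72 genes, and the other 9 arrays show no block of rows that follows the group.

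The mean over all 72 members was 10.41 in control 1, and lay between 10.08 and 10.14 in the other 4 control mice and between 10.07 and 10.16 in the 5 stressed mice. Control 1 was thus above every other array, and the remaining controls lay within the range of the stressed mice. Control 1 was the highest of the 10 arrays for 52 members (72.2%) and the lowest for none, while over all genes it was highest for 34.6% and lowest for 18.6%. By complex it was highest for 28 of 35 complex I genes, 4 of 8 assembly factors, 3 of 4 complex II genes, 6 of 8 complex III genes, 11 of 16 complex IV genes and not for Cycs. The excess of control 1 over the mean of the other 9 arrays had a median of 0.29 over the members and of 0.08 over all genes. The part of the markers of enterocytes, smooth muscle and large intestine in this excess was not tested.

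Complex I, the NADH dehydrogenase, is the largest complex of the chain. The mean of its 35 genes was 10.85 in control 1, between 10.45 and 10.54 in the other controls and between 10.45 and 10.56 in stressed mice, so that the groups overlapped. With 10 arrays 28 genes were lower and 7 higher with a median difference of -0.06, and without control 1 17 were lower and 18 higher with a median of 0.00. The differences without control 1 ran from -0.16 to 0.13.

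Ndufs4, an accessory subunit that stabilises the NADH-oxidising arm of complex I, had the smallest p of the complex in both fits. It was at 9.44, 9.46, 9.52, 9.18 and 9.27 in control mice 1 to 5 and at 9.10, 9.16, 9.18, 9.19 and 9.34 in stressed mice 1 to 5. The groups overlapped, because control mice 4 and 5 lay below stressed mouse 5. The difference was -0.18 ± 0.09 (SE; limma adjusted p = 0.647) with 10 arrays and -0.16 ± 0.09 (SE; limma adjusted p = 0.352) without control 1. The other 2 measured probe sets of Ndufs4 differed by -0.05 and -0.04 with 10 arrays.

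Ndufv2, a core subunit that carries an iron-sulfur cluster, was at 11.83, 11.54, 11.64, 11.38 and 11.41 in control mice and at 11.34, 11.40, 11.41, 11.38 and 11.43 in stressed mice. Its 5 stressed values lay within a span narrower than that of the controls, and control mice 4 and 5 were among them. The difference was -0.17 ± 0.09 (SE) with 10 arrays and -0.10 ± 0.07 (SE) without control 1.

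Ndufc2 and Ndufs3 differed by -0.16 ± 0.11 (SE) and -0.14 ± 0.10 (SE) with 10 arrays, and by -0.07 ± 0.08 (SE) and -0.05 ± 0.07 (SE) without control 1. Both are membrane or core parts of the complex, and both were highest in control 1, at 12.08 and 10.79. Without control 1 the larger positive differences were those of Ndufa13 (0.13 ± 0.08, SE), a subunit also known as GRIM-19, Ndufb3 (0.12 ± 0.07, SE) and Ndufb1 (0.11 ± 0.08, SE), with limma adjusted p of 0.402, 0.376 and 0.490. The single probe set of Ndufb1 had a low mean of 5.54 over the 10 arrays, against 11.65 for Ndufa13 and 9.41 for Ndufb3. Ndufb3 was at 9.30 to 9.36 in 4 controls and 9.34 to 9.59 in stressed mice, and at 9.58 in control 1. Ndufa4, once assigned to complex I and now placed in complex IV, is counted here with complex I by its name, as is Ndufa4l2. Ndufa4 differed by 0.08 ± 0.08 (SE) without control 1. Its hypoxia-induced relative Ndufa4l2 was at 5.68 to 6.01 in stressed and 5.78 to 5.95 in control mice and differed by 0.02 ± 0.08 (SE) with 10 arrays.

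Among the 8 assembly factors of complex I, 6 were lower and 2 higher with 10 arrays, and 5 lower and 3 higher without control 1. Ndufaf6 was at 7.14, 7.19, 7.02, 7.16 and 7.25 in control mice and at 7.34, 7.24, 7.29, 7.24 and 7.42 in stressed mice. Control mouse 5 lay above 2 of the stressed mice, so the groups overlapped. Its difference was 0.15 ± 0.07 (SE; limma adjusted p = 0.641) with 10 arrays and 0.15 ± 0.08 (SE; limma adjusted p = 0.320) without control 1. Ndufaf8 differed by 0.12 ± 0.07 (SE) with 10 arrays, but its second probe set by -0.09. Ndufaf5 differed by -0.13 ± 0.08 (SE). Ndufaf4 varied most among control mice, from 7.86 to 8.63 with the highest value in control mouse 5.

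**Figure D2:**
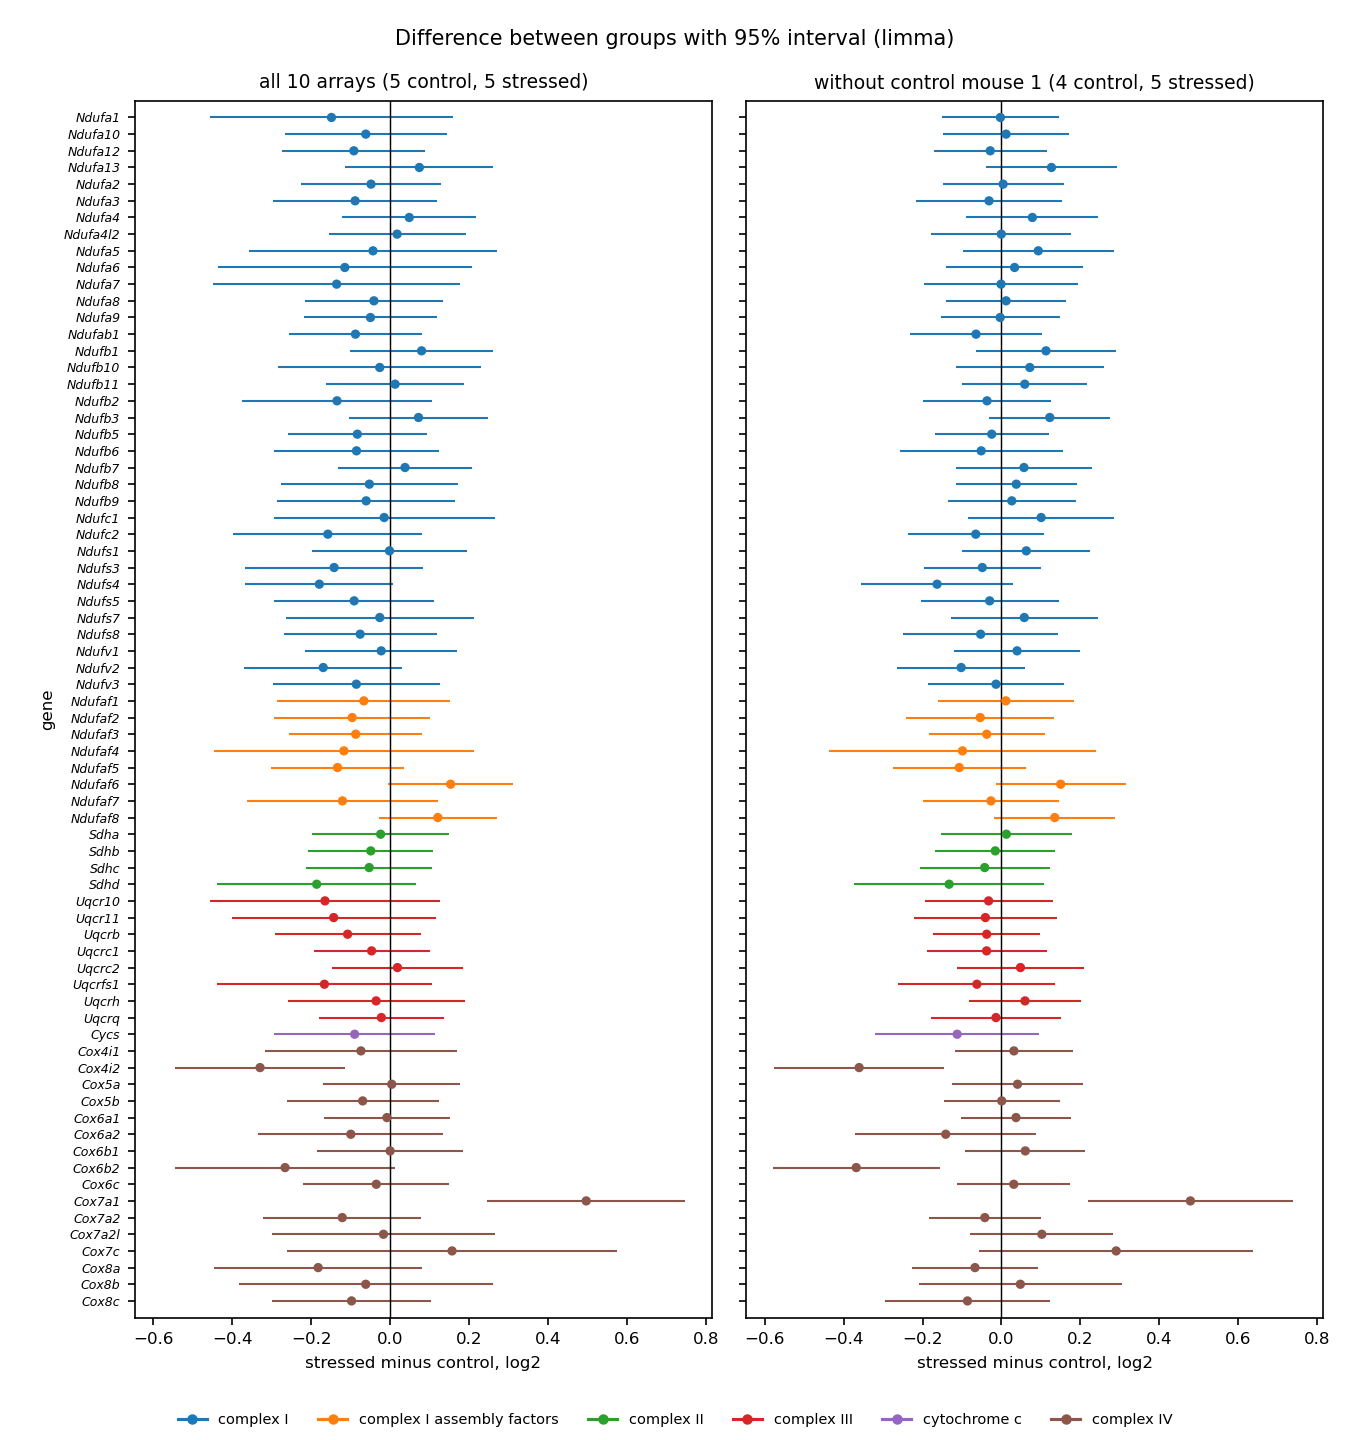
Difference between stressed and control mice on the log2 scale for each of the 72 genes, with its 95% interval from limma, for all 10 arrays on the left and without control 1 on the right, coloured by complex. Without control 1 the interval is shorter for 57 genes and longer for 15, Cox7a1 and Cox4i2 among the latter. The intervals of Cox7a1 and Cox4i2 lie to 1 side of 0 in both panels and that of Cox6b2 in the right panel.

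Complex II links the chain to the citric acid cycle, since succinate dehydrogenase is an enzyme of both. Its 4 genes were all lower with 10 arrays (median -0.05), and 3 of 4 were lower without control 1 (median -0.03). Sdha, the flavoprotein that oxidises succinate, differed by -0.02 ± 0.08 (SE) with 10 arrays and 0.01 ± 0.08 (SE) without control 1. Sdhb, the iron-sulfur subunit, differed by -0.05 ± 0.07 (SE) and -0.02 ± 0.07 (SE), and Sdhc, a membrane anchor, by -0.05 ± 0.07 (SE) and -0.04 ± 0.08 (SE). These differences were smaller than the SD of either group for each of the 3 genes.

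Sdhd, the other membrane anchor, was at 10.71, 10.50, 10.44, 10.42 and 10.42 in control mice and at 9.94, 10.47, 10.35, 10.29 and 10.52 in stressed mice. Stressed mouse 1 was the lowest array and control 1 the highest, and stressed mouse 5 lay above 4 of the controls. The difference was -0.19 ± 0.11 (SE; limma adjusted p = 0.760) with 10 arrays and -0.13 ± 0.11 (SE; limma adjusted p = 0.553) without control 1. The array of stressed mouse 1 also had the highest log2 ratio of 3' to 5' control probe sets, a measure of RNA integrity and labelling, at 1.13 against 0.45 to 0.70 in the other 9 arrays; the part of that ratio in the Sdhd value was not tested.

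Complex III, the cytochrome bc1 complex, passes electrons from ubiquinol to cytochrome c. The mean of its 8 genes was 11.82 in control 1, 11.42 to 11.51 in the other controls and 11.41 to 11.52 in stressed mice. With 10 arrays 7 of the 8 were lower, with a median of -0.08, and without control 1 6 were lower, with a median of -0.04 and a range from -0.06 to 0.06. The Rieske iron-sulfur protein gene Uqcrfs1 differed by -0.17 ± 0.12 (SE) with 10 arrays and -0.06 ± 0.09 (SE) without control 1. Uqcrb, a ubiquinone-binding subunit, went from -0.11 ± 0.08 (SE) to -0.04 ± 0.06 (SE), and Uqcr10 from -0.17 ± 0.13 (SE) to -0.03 ± 0.07 (SE). In these genes the removal of 1 array took away more than the remaining difference. Cyc1, the cytochrome c1 subunit of complex III that the naming rule leaves out, differed by -0.07 ± 0.08 (SE) and -0.03 ± 0.07 (SE).

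Cytochrome c, which also triggers apoptosis when it leaves the mitochondrion, is encoded by Cycs. It was at 12.66, 13.01, 12.65, 12.76 and 12.69 in control mice and at 12.56, 12.75, 12.80, 12.51 and 12.70 in stressed mice. Control mouse 2 was the highest array, stressed mouse 4 the lowest, and the other values were interleaved. The difference was -0.09 ± 0.09 (SE) with 10 arrays and -0.11 ± 0.09 (SE; limma adjusted p = 0.563) without control 1.

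**Figure D3:**
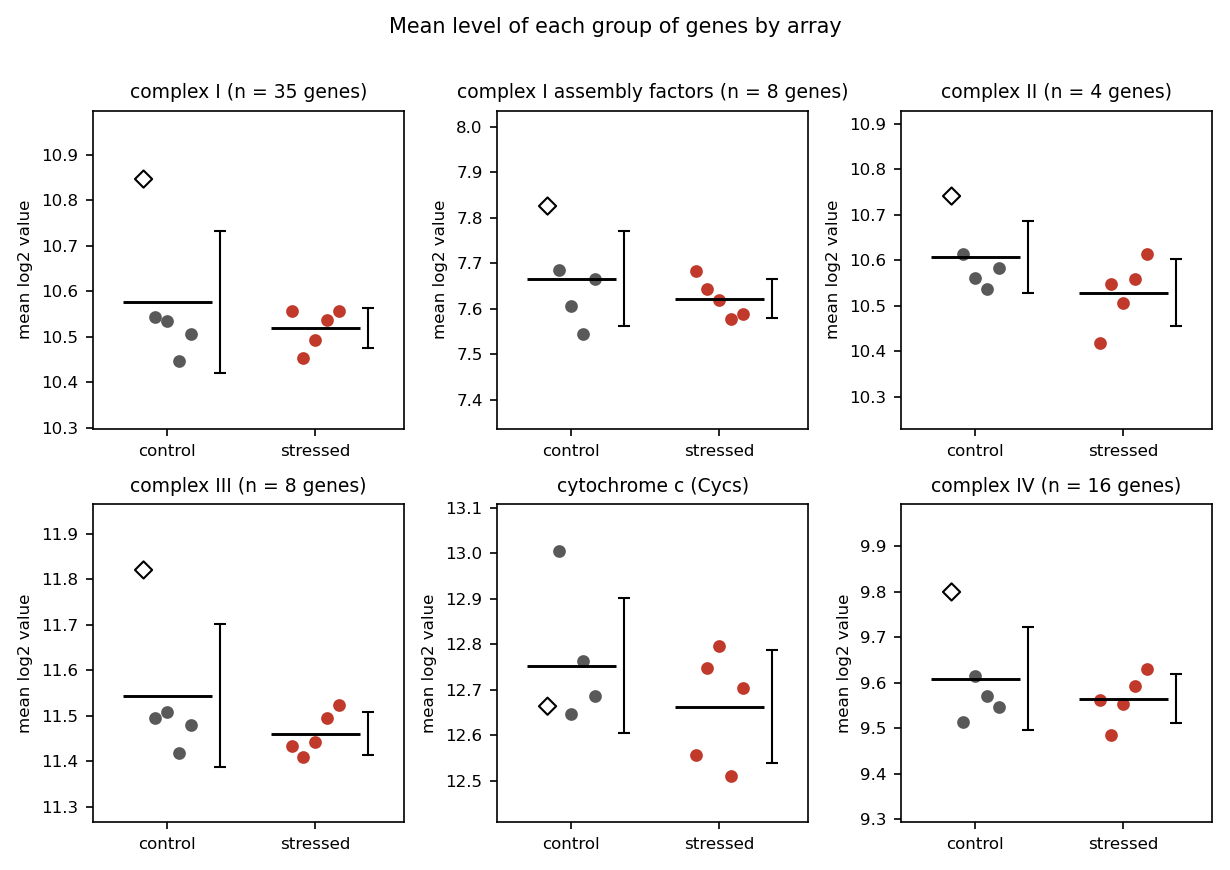
Mean log2 value of the tested genes of each complex on each array, with control mice in grey (control 1 as an open diamond) and stressed mice in red; lines give the mean of 5 mice and bars the SD. In every panel but that of Cycs control 1 lies above all other arrays, and the 4 other controls and the 5 stressed mice overlap in every panel.

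Complex IV, cytochrome c oxidase, reduces oxygen to water. The mean of its 16 genes was 9.80 in control 1, 9.51 to 9.62 in the other controls and 9.49 to 9.63 in stressed mice. With 10 arrays 13 were lower and 3 higher (median -0.07), and without control 1 6 were lower and 10 higher (median 0.03). Without control 1 the broadly expressed subunits differed little: Cox4i1 by 0.03 ± 0.07 (SE), Cox5a by 0.04 ± 0.08 (SE), Cox5b by 0.00 ± 0.07 (SE), Cox6a1 by 0.04 ± 0.06 (SE) and Cox6b1 by 0.06 ± 0.07 (SE). Further Cox5b probe sets differed by -0.01, -0.09 and -0.06 in that fit. A last Cox5b probe set, at a low mean of 4.83, differed by -0.39 ± 0.13 (SE; limma adjusted p = 0.187 over probe sets). In the same fit Cox6c differed by 0.03 ± 0.07 (SE), Cox7a2 by -0.04 ± 0.06 (SE) and Cox8a by -0.07 ± 0.07 (SE). Cox7a2l, a factor that joins complexes III and IV into supercomplexes, differed by 0.10 ± 0.08 (SE).

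Cox7a1 encodes the heart and muscle isoform of subunit 7a, which is also made in brown fat. It was at 8.42, 8.53, 8.58, 8.51 and 8.40 in control mice 1 to 5 and at 9.0, 8.72, 8.87, 8.95 and 9.39 in stressed mice 1 to 5. Every stressed mouse lay above every control mouse, control 1 included, and stressed mouse 5 was the highest. With 10 arrays it was 1 of 72 members whose stressed values all lay above the controls, as in 1.16% of all genes, and without control 1 it was again 1 of 72, as in 4.51% of all genes. The difference was 0.50 ± 0.11 (SE), a 1.41-fold higher signal with a 95% interval from 0.25 to 0.75 on the log2 scale, and a limma adjusted p of 0.321. Without control 1 the estimate was 0.48 ± 0.12 (SE; limma adjusted p = 0.0800). Over the alternatives tried it stayed between 0.38 and 0.56 and its limma adjusted p between 0.0530 and 0.687.

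The broadly expressed partner of Cox7a1, Cox7a2, did not follow it. Cox7a2 was at 12.94 in control 1, at 12.48 to 12.58 in the other controls and at 12.44 to 12.57 in stressed mice. The probe sets of the isoforms cannot be set against each other in level, so the share of each in complex IV was not measured.

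Markers of fat cells in general, of smooth muscle and of striated muscle were measured on the same arrays. Of 8 adipocyte genes on the array 6 were tested, and their mean was 8.36 in control 1, 6.52 to 7.20 in the other controls and 6.88 to 7.78 in stressed mice, with Ucp1 and Lep below the floor. Without control 1 all 6 were higher in stressed mice, with a median difference of 0.36, and 0 passed limma over all genes. Among the 6, Cidea hardly differed, at 4.79 to 4.95 in controls 2 to 5 and 4.61 to 4.97 in stressed mice. Lpl, the lipoprotein lipase, differed by 0.53 ± 0.22 (SE) and Adipoq, the adipocyte hormone adiponectin, by 0.66 ± 0.37 (SE). Control mouse 5 was the lowest array for both, at 7.58 for Lpl and 6.08 for Adipoq. The smooth muscle mean was 9.96 to 10.32 in controls 2 to 5 and 9.78 to 10.68 in stressed mice. In stressed mouse 5, where Cox7a1 was highest, the smooth muscle mean was the lowest of all arrays and the adipocyte mean the highest of the 9. Of 10 striated muscle genes 4 were tested, and their mean was 6.34 to 6.72 in control mice and 6.14 to 6.39 in stressed mice; Acta1, skeletal muscle actin, differed by -1.06 ± 0.27 (SE) with 10 arrays. Control 1 had the highest adipocyte and smooth muscle means of all arrays and a Cox7a1 value within the range of the other controls. The part of the adipocyte markers in the Cox7a1 difference was not tested. With stressed mouse 4, the array with high Car1, left out as well as control 1, Cox7a1 differed by 0.49 with a limma adjusted p of 0.164.

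Cox4i2 encodes an isoform of subunit 4 that is known from lung and from oxygen-sensing vascular cells. It was at 4.51, 4.47, 4.93, 4.72 and 4.54 in control mice and at 4.22, 4.22, 4.34, 4.36 and 4.40 in stressed mice. Every stressed mouse lay below every control mouse, as in 1.12% of all genes with 10 arrays, where 2.28% did not overlap in 1 direction or the other. All these values lay close to the floor of 4.15, so the signal may be little above background. The difference was -0.33 ± 0.10 (SE; limma adjusted p = 0.419) with 10 arrays and -0.36 ± 0.10 (SE; limma adjusted p = 0.10) without control 1. Its partner Cox4i1 was at 13.11 in control 1, 12.55 to 12.64 in the other controls and 12.52 to 12.71 in stressed mice.

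Cox6b2 encodes the testis isoform of subunit 6b. It was at 5.92, 6.32, 6.49, 6.55 and 6.35 in control mice and at 6.24, 5.93, 6.15, 6.14 and 5.84 in stressed mice. Control 1 lay within the stressed range, and the other 4 controls lay above all stressed mice. Without control 1, Cox4i2 and Cox6b2 were the 2 members whose stressed values all lay below the controls, as in 2.72% of all genes, where 7.24% did not overlap in 1 direction or the other. The members without overlap were thus about as frequent as, or less frequent than, such genes on the whole array. The T cell mean (7 of 9 markers tested) was 5.92 to 7.09 in controls 2 to 5 and 5.49 to 5.92 in stressed mice. The B cell mean (5 of 10) was 5.10 to 6.51 and 4.74 to 5.02. In control 1 the T cell mean was 5.73, within the stressed range, and the B cell mean 4.33, below every other array. The part of these markers in the Cox4i2 and Cox6b2 differences was not tested. The difference was -0.27 ± 0.13 (SE; limma adjusted p = 0.647) with 10 arrays and -0.37 ± 0.10 (SE; limma adjusted p = 0.0921) without control 1. With each array centred on its median and control 1 left out, Cox6b2 fell by 0.43, with a limma adjusted p of 0.0487, the 1 setting in which a member of the chain was called. Its partner Cox6b1 was at 12.80 in control 1, 12.49 to 12.52 in the other controls and 12.46 to 12.64 in stressed mice.

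**Figure D4:**
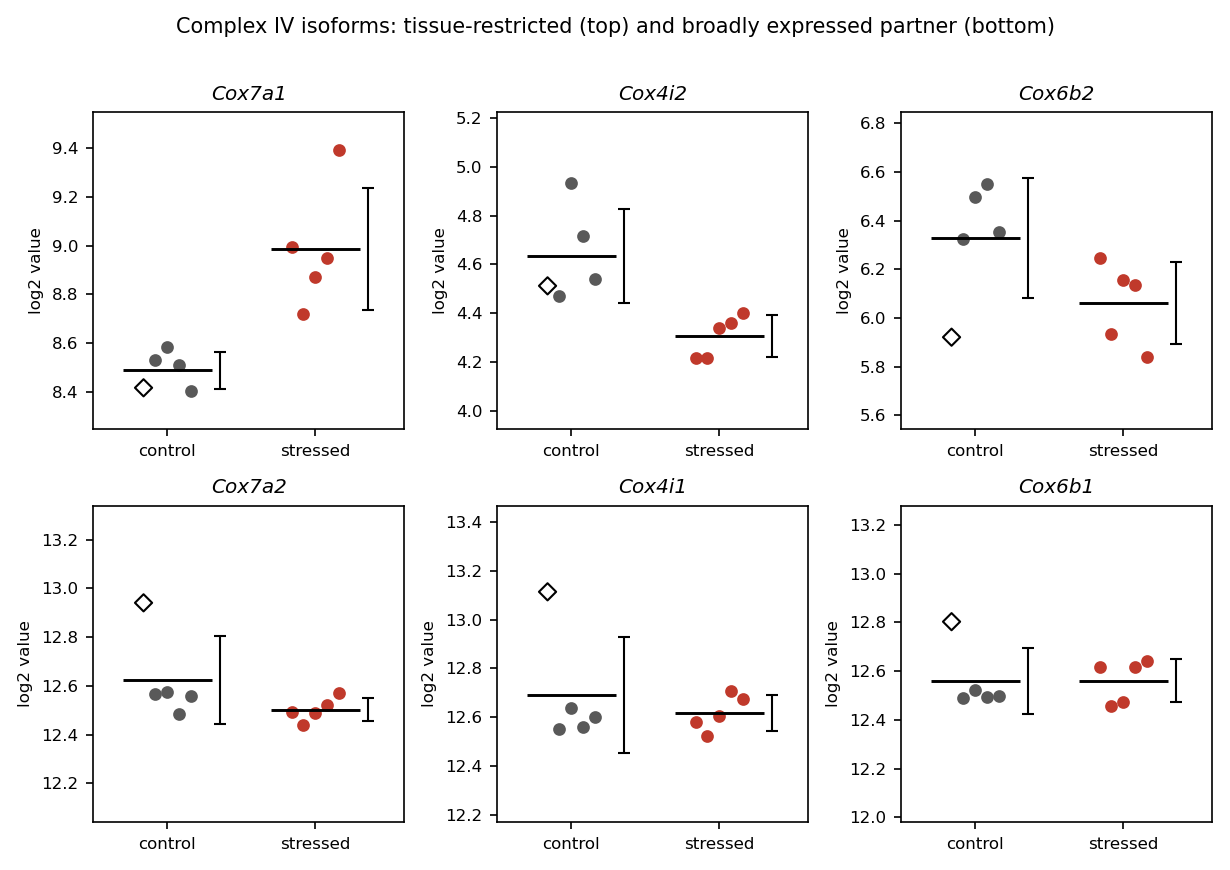
Log2 value of 3 tissue-restricted isoforms of complex IV (top row) and of the broadly expressed partner of each (bottom row), with 1 point per mouse, control 1 as an open diamond, lines for the mean of 5 mice and bars for the SD; every panel spans the same height of log2 units. Cox7a1 was higher and Cox4i2 lower in all 5 stressed mice, Cox6b2 was lower than in 4 of 5 controls, and the partners overlapped between the groups.

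The other isoforms of restricted tissue range did not separate the groups. Cox6a2, the muscle isoform of subunit 6a, was at 4.95 to 5.50 in control and 4.97 to 5.21 in stressed mice, and its partner Cox6a1 at 13.64 to 13.93 and 13.70 to 13.80. Cox8b, the muscle isoform of subunit 8, was at 4.91 to 5.67 and 4.84 to 5.42, and its partner Cox8a at 11.39 to 12.05 and 11.36 to 11.50. Cox8c, known from testis, was at 6.25 to 6.71 and 6.32 to 6.52. Cox7b2 of complex IV, at a mean of 1.95, and Ndufb4 of complex I, at a mean of 2.65 on its single-symbol probe set, lay below the floor and were not tested. Probe sets that name Ndufb4 together with Ndufb4b and Ndufb4c had means of 9.93 and 10.34. They were left out because they carry several symbols. The highest probe set of Cox7c, a broadly expressed subunit, was at only 5.72 on average. It varied from 4.97 to 6.18 among control mice, and it differed by 0.29 ± 0.16 (SE) without control 1, with a limma adjusted p of 0.357.

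Promoter sequences of the members were read from RefSeq, 250 bases before to 50 after the start site on build GRCm38.p6 as a description of the genes. Entries were found for 60 of the 74 members, with 62 promoters in all. The restricted isoforms Cox7a1 and Cox6b2 are shown, each with its broadly expressed partner, Cox7a2 and Cox6b1, and Cox4i2 is given by name only. Sdhd was added because its promoter carries motifs typical of respiratory genes. Capitals mark matches, on either strand, to GCGCA, any base and GCGC in a row (the factor NRF1), CCGGAAG (ETS factors such as GABPA), AAGATGGCG (YY1), AAGGTCA (the ERR receptors), CTA, 4 bases of any kind and TAG in a row (MEF2), CCAAT and TATAAA, and none of the marked matches of different motifs overlap.
Cox7a1, chr7:30183921-30184220, + strand: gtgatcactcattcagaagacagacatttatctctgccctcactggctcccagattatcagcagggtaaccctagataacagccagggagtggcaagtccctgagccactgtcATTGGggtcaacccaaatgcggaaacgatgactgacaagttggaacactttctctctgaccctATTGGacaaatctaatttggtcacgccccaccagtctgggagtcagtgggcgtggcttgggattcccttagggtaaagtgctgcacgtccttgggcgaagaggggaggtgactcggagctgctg
Cox7a2, chr9:79759804-79760103, - strand: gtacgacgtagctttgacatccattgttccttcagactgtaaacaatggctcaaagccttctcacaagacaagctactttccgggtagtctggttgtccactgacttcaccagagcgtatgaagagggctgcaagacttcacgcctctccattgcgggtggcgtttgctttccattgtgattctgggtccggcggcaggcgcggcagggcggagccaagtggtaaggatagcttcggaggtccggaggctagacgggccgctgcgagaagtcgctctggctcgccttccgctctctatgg
Cox6b2, chr7:4753045-4753344, - strand: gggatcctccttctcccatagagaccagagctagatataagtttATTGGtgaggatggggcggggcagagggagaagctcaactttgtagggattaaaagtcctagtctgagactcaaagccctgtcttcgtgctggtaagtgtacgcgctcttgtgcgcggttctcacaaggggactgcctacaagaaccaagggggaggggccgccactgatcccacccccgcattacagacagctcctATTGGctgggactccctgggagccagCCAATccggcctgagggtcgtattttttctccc
Cox6b1, chr7:30626065-30626364, - strand: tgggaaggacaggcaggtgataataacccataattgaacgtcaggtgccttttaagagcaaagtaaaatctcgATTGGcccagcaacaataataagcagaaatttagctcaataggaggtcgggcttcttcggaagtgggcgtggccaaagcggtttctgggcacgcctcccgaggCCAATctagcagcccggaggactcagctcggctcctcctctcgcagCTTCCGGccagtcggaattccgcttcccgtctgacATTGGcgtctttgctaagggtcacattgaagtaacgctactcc
Sdhd, chr9:50603800-50604099, - strand: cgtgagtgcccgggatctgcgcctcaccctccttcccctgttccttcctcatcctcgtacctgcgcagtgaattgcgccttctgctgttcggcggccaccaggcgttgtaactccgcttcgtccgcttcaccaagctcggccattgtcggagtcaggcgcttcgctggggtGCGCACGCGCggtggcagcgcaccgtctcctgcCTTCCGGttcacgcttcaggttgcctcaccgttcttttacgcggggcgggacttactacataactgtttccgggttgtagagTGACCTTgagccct

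In Cox7a1 and Cox6b2 the letters found were those of CCAAT alone, at 2 and 3 places. The partner Cox7a2 held none of the 7 motifs, and the partner Cox6b1 held CCAAT at 3 places and ETS letters whose first base lay at position -28 from the start. The promoter of Sdhd held NRF1 letters at -79, ETS letters at -46 and ERR letters at 37. The NRF1 letters were in 12 of the 62 member promoters (19.4%) and in 4.60% of all 32851 promoters, the ETS letters in 13 (21.0%) and 8.86%, and the YY1 letters in 5 (8.06%) and 1.4%. The ERR letters were in 4 (6.45%) against 4.72% of all, the MEF2 letters in 2 (3.23%) against 3.69%, CCAAT in 24 (38.7%) against 37.4%, and TATAAA in 7 (11.3%) against 13.6%. The MEF2 letters allow any middle bases, a pattern looser than the site of that factor, so these counts are not counts of MEF2 sites. At least 1 of the NRF1, ETS and YY1 motifs was in 27 of the 58 promoters of members other than the restricted isoforms, in 0 of the 4 promoters of restricted isoforms (Cox6b2, Cox7a1, Cox7b2 and Cox8b) and in 13.6% of all promoters. The median GC content was 59.5% in the former 58, 50.8% in those 4 and 52.7% in all promoters. A match of letters is a description of the sequence and was not tied to binding in these mice.

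How closely the arrays bound the differences can be read from the 95% intervals of limma. Without control 1 the interval lay within 0.3 of 0 on the log2 scale for 61 of 72 members, against 40.3% of all genes tested, and with 10 arrays for 46 of 72, against 33.5%. By complex it did so, without control 1, for 34 of 35 genes of complex I, 6 of 8 assembly factors, 3 of 4 of complex II, 8 of 8 of complex III and 10 of 16 of complex IV. The 11 members whose interval reached further were Cox7a1, Cox4i2, Cox6b2, Cox7c, Cox6a2, Cox8b, Cycs, Ndufs4, Sdhd, Ndufaf4 and Ndufaf6. Without control 1 the median SD within groups was 0.09 over the members and 0.15 over all genes, and with 10 arrays it was 0.13 and 0.19.

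Several genes were read by more than 1 probe set, which gives a check within the array. Of 40 members with 2 or more probe sets above the floor, the differences of 10 had opposite signs between probe sets with 10 arrays and those of 18 without control 1. None of the 137 probe sets passed limma over all probe sets, where 0% of all 23541 probe sets passed with 10 arrays and 0.272% without control 1. At an unadjusted p under 0.05 were 4 of the 137 with 10 arrays, against 7.51% of all probe sets, and 5 without control 1, against 16.5%. Cycs had 3 probe sets that were lower in both sets of arrays, with differences of -0.11, -0.18 and -0.09 without control 1. Cox7a1, Cox4i2 and Cox6b2 each had 1 probe set.

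Other genes of the pathway were counted from lists. ND5, the 1 mitochondrially encoded subunit with a tested probe set of its own symbol, was at 12.65 in control 1, 12.07 to 12.24 in the other controls and 12.04 to 12.41 in stressed mice. It differed by 0.06 ± 0.08 (SE) without control 1. Of 18 ATP synthase genes, 0 passed limma; 7 were higher with 10 arrays and 14 without control 1, with medians of -0.02 and 0.02 and, at the smallest p, Atp5g2 at -0.20 ± 0.13 (SE) with 10 arrays and Atp5b at 0.09 ± 0.08 (SE) without control 1. Of 13 citric acid cycle genes, 0 passed; 9 and 11 were higher, with medians of 0.05 and 0.07, and Cs, citrate synthase, differed by 0.16 ± 0.08 (SE) and 0.10 ± 0.07 (SE).

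Assembly factors outside the naming rule gave no call either. Of 11 factors of complex I, 3 were higher with 10 arrays and 6 without control 1 (medians -0.06 and 0.00), with Acad9 at -0.18 ± 0.09 (SE) with 10 arrays. Of 4 factors of complex II, 1 was higher in both (medians -0.18 and -0.15), with Sdhaf3 at -0.24 ± 0.10 (SE) with 10 arrays. Of 5 tested factors of complex III, 1 and 3 were higher (medians -0.01 and 0.07), with Ttc19 at 0.32 ± 0.12 (SE) without control 1. Of 22 factors of complex IV, 7 and 11 were higher (medians -0.07 and 0.00), with Cox15, which makes haem A, at -0.19 ± 0.08 (SE) with 10 arrays.

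Of 76 genes of the mitochondrial ribosome, which translates the mitochondrial subunits, 62 were lower with 10 arrays and 55 without control 1, with medians of -0.09 and -0.06, and 0 passed limma. In either set 5 were lower and 0 higher at an unadjusted p under 0.05, where 3.96% (10 arrays) and 6.56% (without control 1) of all genes were lower, with Mrpl32 at -0.21 ± 0.08 (SE) with 10 arrays and Mrps22 at -0.20 ± 0.08 (SE) without control 1. Of 13 tested regulators of mitochondrial genes, 9 were higher with 10 arrays and 8 without control 1. The coactivator Ppargc1a (PGC-1α) was the 1 regulator that passed, and only without control 1, where 0.798% of all genes passed. It was at 8.60, 7.03, 7.23, 7.31 and 7.37 in control mice and at 7.75, 7.77, 7.98, 8.19 and 8.15 in stressed mice. Without control 1 all stressed values lay above the controls, as in 4.51% of all genes. In that fit Ppargc1a rose by 0.73 ± 0.11 (SE; limma adjusted p = 0.0245), and with 10 arrays it differed by 0.46 ± 0.26 (SE). Its value was not followed through the alternatives. Gabpa, the ETS factor also called NRF-2α, differed by 0.26 ± 0.12 (SE) without control 1.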

How the data were processed

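Ileal RNA of 5 control and 5 stressed mice was measured on 1 array each. The authors deposited log2 probe set values made with RMA, per the submitters' processing notes; its version is not given in the sources used here; that the base is 2 was taken from the values (1.22 to 14.37). RMA brings the arrays to 1 distribution, so that shifts in total RNA cannot be seen. Arrays carry no read depth, and their number limits the precision.

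Of 45101 probe sets, 34945 carried 1 gene symbol in the platform annotation, 932 several and 9160 none, and 64 were controls. Probe sets with several symbols were left out, among them 10 that name a gene of the rule. Ndufa11 and Ndufs6 of complex I were named only on such probe sets and so are not among the members. The lowest 40 percent of probe sets by mean were left out (floor 4.15), and each gene was read from its highest probe set. The comparison of groups used limma 3.58.1 (R 4.3.3) and Benjamini-Hochberg adjustment over 13666 genes, a gene being called at an adjusted p under 0.05. The script was tested on simulated data. Beyond single housing, the labels do not say how the mice were spread over days.

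The named genes were the 12 members with the smallest p in each fit, the genes of complex II, Cycs and the isoform pairs, and up to 2 members of each other list by p; Cox5a, Cox5b, Cox6c, Cox7a2l, Cox8c, Ndufaf4, Uqcrfs1, Uqcrb and Uqcr10 were added after their values were seen. The members and lists were chosen with earlier results of these data known. Alternatives changed the filter, the probe set, the scaling, the variance model, array weights, a 3' to 5' covariate, a replicate block and each replicate left out.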

Additional observations from a re-analysis of the deposited data

Results flagged for a closer look

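Of 70 sets of 5 mice examined (named members and means of complexes in each group), 8 held 1 mouse far from the other 4, where chance gives about 1 in 20 for a single set. The sets share the same arrays and the means contain named members, so the 8 are not separate trials. In all 8 that mouse was control 1, and in all 8 it was the highest control. The mean of all members was 10.41 in control 1 against at most 10.14 in the other controls, the mean of complex I 10.85 against at most 10.54, and the mean of complex III 11.82 against at most 11.51. Cox4i1 was at 13.11 against at most 12.64, Cox7a2 at 12.94 against at most 12.58, and Cox6b1 at 12.80 against at most 12.52. Sdhd was at 10.71 against at most 10.50, and Ndufb3 at 9.58 against at most 9.36. No set of stressed mice was marked in this way.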

How the results depend on the processing

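The count of members called in limma was 0 with 10 arrays under every alternative run, the replicate block (0) included. Without control 1 it was 0 under all but 1: arrays centred on their median gave 1, Cox6b2, whose limma adjusted p was 0.0487 there and ranged from 0.0487 to 0.190 over the alternatives. That centring also moved the median differences without control 1, to -0.0665 for all members, -0.0604 for complex I, -0.0966 for the assembly factors, -0.0938 for complex II, -0.0997 for complex III and -0.0333 for complex IV; by its construction it subtracts the shift of the median gene from each array. With 10 arrays, array weights moved the median of the assembly factors to -0.00155 and the split of all members to 30 higher and 42 lower; the cause was not tested. Leaving out 1 mouse moved the median of complex IV with 10 arrays to between -0.107 (without control 2) and 0.0313 (without control 1). The count of all genes called without control 1, 109, ranged from 6 (without stressed 4) to 154 (without stressed 2) when another mouse was left out, and was 95 with the replicate block, which gives stressed 1 no partner and so drops it. Of 918 values of named members under the alternatives, 42 differed in sign from the reported value, in 15 of 50 results, none of them for Cox7a1, Cox4i2 or Cox6b2. Cox4i2 was left out with the lowest 60 percent of probe sets and has no value there. Same-numbered mice deviated together at correlations from -0.30 to 0.28 across genes, and 1 of 5 control mice correlated best with its own number. The deviations were taken from group means that included control 1. The check therefore cannot decide whether the replicate numbers pair the mice. Members close to the floor, Cox4i2 among them, are limited by signal over background.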
